A study of Mus musculus with 25 samples.

Results

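The transcripts described here encode the 5 NF-κB factors Nfkb1, Nfkb2, Rela, Rel and Relb and 5 inhibitors or feedback regulators of the same pathway, Nfkbia, Nfkbie, Nfkbiz, Bcl3 and Tnfaip3. The 10 genes are a list of names, set with earlier results of these data known, and are 10 of the 22439 gene symbols in the deposited matrices. Their mRNA was measured in myeloid cells of the mouse spinal cord after injury, by droplet-based 3′ single-cell RNA sequencing. Each of the 25 libraries held cells of 1 to 3 mice, so the library is the replicate. Per the labels, tissue came from a laminectomy without cord injury (Ctrl, 2 libraries) or from an injured cord. Injured cords were taken on day 1 in 5 libraries (D1), on day 2 in 4 (D2), on day 3 in 7 (D3), on day 10 in 5 (D10) and on day 21 in 2 (D21). The series' design text does not list day 2, and the sample labels were followed.

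All mice carried Cx3cr1CreERT2, in which the Cx3cr1 locus drives a Cre that can be induced, together with a yellow fluorescent reporter (YFP). In 12 libraries, here called mixed, the strain was Cx3cr1CreERT2 alone and YFP+ cells were taken. In the others the strain was Cx3cr1CreERT2:R26tdTomato, in which Cre turns on a red reporter (RFP). There, 5 libraries of RFP+/YFP+ cells are called resident and 7 libraries of RFP-/YFP+ cells are called infiltrating. Resident and infiltrating libraries are thus of 1 strain, while for mixed libraries against the others sort and strain cannot be told apart. A D3 library whose title and sort label disagree was kept out of every comparison between groups, apart from 1 alternative fit, and its cells are part of the cluster description. The Ctrl libraries were a mixed library of female mice and a resident library of male mice, and all 3 mixed D1 libraries were from males. Cx3cr1 is expressed by microglia and by part of the monocytes, and all 1887 cells of the Ctrl libraries were coded as microglia.

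NF-κB factors are dimers of the Rel family that wait in the cytoplasm, held there by inhibitor proteins of the IκB family, until receptors for cytokines or microbial products activate the IκB kinases. The kinases mark IκB for destruction, the dimer enters the nucleus, and among the genes it turns on are its own inhibitors, so that the response limits itself. In microglia and in macrophages that enter injured tissue, this pathway drives cytokine and chemokine genes. mRNA levels, which were measured here, do not show whether a dimer is in the nucleus.

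Nfkb1 (chromosome 3, 135584655 to 135691547 on GRCm38, minus strand) and Nfkb2 (chromosome 19, 46304320 to 46312385, plus strand) encode precursors that are cut to p50 and p52, which lack an activation domain. Rela (chromosome 19, 5637483 to 5648130, plus strand), Rel (chromosome 11, 23736847 to 23770970, minus strand) and Relb (chromosome 7, 19606217 to 19629438, minus strand) encode the subunits with such a domain. Nfkbia (chromosome 12, 55489410 to 55492647, minus strand) and Nfkbie (chromosome 17, 45555703 to 45563169, plus strand) encode the cytoplasmic inhibitors IκBα and IκBε. Nfkbiz (chromosome 16, 55811375 to 55838899, minus strand) and Bcl3 (chromosome 7, 19808462 to 19822770, minus strand) encode nuclear IκB proteins that bind p50 or p52. Tnfaip3 (chromosome 10, 19000910 to 19015657, minus strand) encodes A20, a ubiquitin-editing enzyme that shuts off signalling upstream of the kinases.

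The promoters are shown because feedback in this pathway runs through NF-κB sites in front of its own genes. RefSeq windows of 300 bases, 250 before and 50 after an annotated start on GRCm38.p6, were at hand for 7 members and 10 starts. A match to the NF-κB consensus motif, a pattern of 10 bases searched on both strands, lay in 8 of these 10 windows, and in at least 1 window of 6 of the 7 members. Of all 32851 RefSeq windows of that length, 4.51% held a match and 0.554% held at least 2. Overlapping matches were counted separately, and so were overlapping windows. The windows at chr19:46305445-46305744 and chr19:46305680-46305979, both of Nfkb2, overlap and share a match. The 130 bases before the start are printed 5′ to 3′ on the gene's strand, with matches in capitals, for 2 feedback inhibitors, for 2 factors, and for Rela, which held no match. Nfkb1, Relb and Nfkbiz had no window to search.

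Nfkbia, chr12:55492648-55492777, minus strand: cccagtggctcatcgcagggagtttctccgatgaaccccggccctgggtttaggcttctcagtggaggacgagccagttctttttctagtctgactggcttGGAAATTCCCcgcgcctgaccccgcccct
Tnfaip3, chr10:19015411-19015540, minus strand: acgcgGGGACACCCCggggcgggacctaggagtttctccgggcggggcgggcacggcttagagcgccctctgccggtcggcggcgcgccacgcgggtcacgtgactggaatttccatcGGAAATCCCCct
Rel, chr11:23770970-23771099, minus strand: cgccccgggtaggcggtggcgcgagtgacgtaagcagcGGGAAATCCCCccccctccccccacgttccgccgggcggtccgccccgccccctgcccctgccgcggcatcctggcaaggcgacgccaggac
Nfkb2, chr19:46304607-46304736, plus strand: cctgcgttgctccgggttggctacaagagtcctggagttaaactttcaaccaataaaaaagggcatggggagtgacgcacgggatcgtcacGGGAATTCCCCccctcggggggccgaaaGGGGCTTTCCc
Rela, chr19:5637411-5637540, plus strand: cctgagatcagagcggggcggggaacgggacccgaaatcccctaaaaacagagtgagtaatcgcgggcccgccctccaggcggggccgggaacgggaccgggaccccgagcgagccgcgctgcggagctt

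The match in Nfkbia began 29 bases before the start, and those in Tnfaip3 began 125 and 12 bases before it. In Rel, 2 overlapping matches began 92 and 91 bases before the start, and in Nfkb2 matches began 39, 38 and 11 bases before it. A match is a run of letters and does not show that a factor bound there.

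The deposited table gave each of the 30958 cells a cell type code and a cluster. The codes carry no names, and they are named here from marker genes. Microglia (13289 cells, 42.9%) were marked by 10 of 10 microglia genes. Macrophages (12841 cells, 41.5%) were marked by 8 of 10 macrophage and 6 of 9 monocyte genes, dendritic-like cells (2712) by 8 of 10 dendritic cell genes and neutrophil-like cells (2116) by 10 of 10 neutrophil genes. The neutrophil-like code also carried the erythroid genes Hba-a1 and Hbb-bs. Median UMIs per cell were 3062 in microglia, 9144 in macrophages, 11361 in dendritic-like and 2154 in neutrophil-like cells. A library had between 155 and 3800 cells, with 486649 to 33204422 UMIs in total, and 127 of 30831 barcodes occurred in more than 1 library, in 254 cells. Counts were summed per library and cell type where at least 20 cells were present, and levels are given as CPM, the count scaled to the sum's UMI total. CPM from 3′ counting are compared here between samples of 1 gene, not between genes.

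In microglia, the level of Nfkb1 at D1 was a fraction of that in the controls. Nfkb1 stood at 170 and 160 CPM in the Ctrl mixed and Ctrl resident libraries and at 28.9, 27.1 and 23.2 CPM in the 3 D1 libraries. All D1 libraries lay far below both controls. Across 10801 genes, the fit gave a log2 difference of -1.95 ± 0.271 (SE; 3 against 2 libraries, edgeR adjusted p = 4.16e-05). This call was kept in every alternative that could be fitted.

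Rel, the c-Rel subunit of myeloid and lymphoid cells, took the same direction. Its level was 143 and 85.8 CPM in the 2 controls and 17.9, 16.8 and 17.6 CPM at D1. The D1 libraries were close together and the controls were not, and the groups did not overlap. The log2 difference was -1.96 ± 0.459 (SE; edgeR adjusted p = 0.00235). With mixed libraries alone, which leaves 1 control, it was -3.03 and not called (edgeR adjusted p = 0.128).

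Of the inhibitors or feedback regulators, Nfkbie and Nfkbiz were also lower at D1. Nfkbie stood at 31.3 and 18.9 CPM in the controls and at 4.16, 3.13 and 6.96 CPM at D1, with no overlap (log2 -1.87 ± 0.501 SE, edgeR adjusted p = 0.00574). Nfkbiz stood at 17.3 and 18.9 CPM in the controls and at 1.97, 0.855 and 5.80 CPM at D1 (log2 -1.91 ± 0.697 SE, edgeR adjusted p = 0.0326). Nfkbiz rests on few molecules, and its call was lost without either control or without D1 mixed 1 or 2 (edgeR adjusted p from 0.0856 without Ctrl mixed 1 and 0.102 and 0.111 without D1 mixed 1 and 2 to 0.165 without Ctrl resident 1). It was also lost with the sort as a term (0.0714). The call of Nfkbie was lost without Ctrl mixed 1 (edgeR adjusted p = 0.084). With mixed libraries alone, which leaves 1 control, neither was called and the fitted values were positive (Nfkbie 3.88 and Nfkbiz 2.75). In CPM, every D1 library still lay below Ctrl mixed 1 for both genes. That control was female and all mixed D1 libraries were male. With the sex term, day and sex were then told apart only through D2 mixed 1 (female) and D2 mixed 2 (male, 23 microglia).

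Bcl3, the nuclear co-regulator, went the other way. It stood at 5.00 and 10.2 CPM in the controls and at 10.3, 19.4 and 17.6 CPM at D1, so that the lowest D1 library lay just above the higher control. The log2 difference was 1.60 ± 0.439 (SE; edgeR adjusted p = 0.00673), and it was 1.36 (edgeR adjusted p = 0.0682) without Ctrl mixed 1 and 2.01 (0.263) with mixed libraries alone.

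The remaining 5 members did not pass at D1. Nfkbia stood at 202 and 169 CPM in the controls and at 98.7, 123 and 307 CPM at D1, with D1 mixed 3 above the controls and the other D1 libraries below them (log2 0.70 ± 0.439 SE, edgeR adjusted p = 0.203). Relb stood at 41.3 and 23.2 CPM in the controls and at 15.5, 9.69 and 7.43 CPM at D1, without overlap (log2 -0.95 ± 0.390 SE, edgeR adjusted p = 0.0553). Nfkb2 gave a log2 difference of 0.01 (95% interval -0.75 to 0.77), Rela -0.30 (-0.88 to 0.28) and Tnfaip3 -0.84 (-2.15 to 0.46). Relb was called on leaving out any of 6 libraries, with an edgeR adjusted p from 0.0188 without Ctrl resident 1 to 0.0483 without D2 mixed 2. The others were D1 mixed 1 (0.0268), D3 resident 2 (0.0423), D3 mixed 2 (0.0406) and D21 mixed 1 (0.0398). Relb was called lower as well with DESeq2 (adjusted p = 0.0211) and, in edgeR, with median-of-ratios scaling (0.0254), no expression filter (0.0436), at least 50 cells (0.0483), the sort as a term (0.0499) or without cluster 2 (0.048). Tnfaip3 was called without D1 mixed 3 (log2 -1.72, edgeR adjusted p = 0.0194).

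In all, 1 of 10 members was called higher and 4 lower at D1, where 23.9% of the 10801 tested genes were called higher and 22.7% lower. The members' median log2 difference was -0.89 and that of all genes -0.01. The number of called members was 5, and 2 when Ctrl mixed 1 was left out.

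The fitted differences depend on a scaling step in this comparison. The TMM factors of edgeR ranged from 1.38 to 1.46 in control microglia and from 0.843 to 0.905 at D1, and CPM carry no such factor. Scaled by total counts alone, the median of all genes moved to -0.73 at D1, and calls moved from 2577 higher and 2457 lower to 1282 and 4383. On that scale Relb (log2 -1.65), Rela (-1.03) and Tnfaip3 (-1.57) were called lower as well, and Bcl3 was not called (0.86, edgeR adjusted p = 0.108). Every D1 library with microglia was sequenced in a pool that held no control, so pool and day cannot be told apart.

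Markers of other states moved with the same comparison. In the sums of microglia, the 10 microglia markers added up to 26815 and 30241 CPM in the controls and to 4790 to 9104 CPM at D1. The 10 macrophage markers added up to 22.9 and 52.3 CPM in the controls, where Gpnmb was at 0, and to 1273 to 2496 CPM at D1. The 20 immediate early and heat shock genes, which respond to cell handling as well as to signals, added up to 2561 and 3095 CPM in the controls and to 1195 to 1468 CPM at D1. The part of these shifts in the members' differences was not tested. Of the clusters that hold most microglia, clusters 2 and 3 also held cells coded as macrophages (123 of 1924 and 348 of 3660). Without the cells of cluster 2 the number of called members at D1 was 6, and cluster 3 was not left out.

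**Figure D1:**
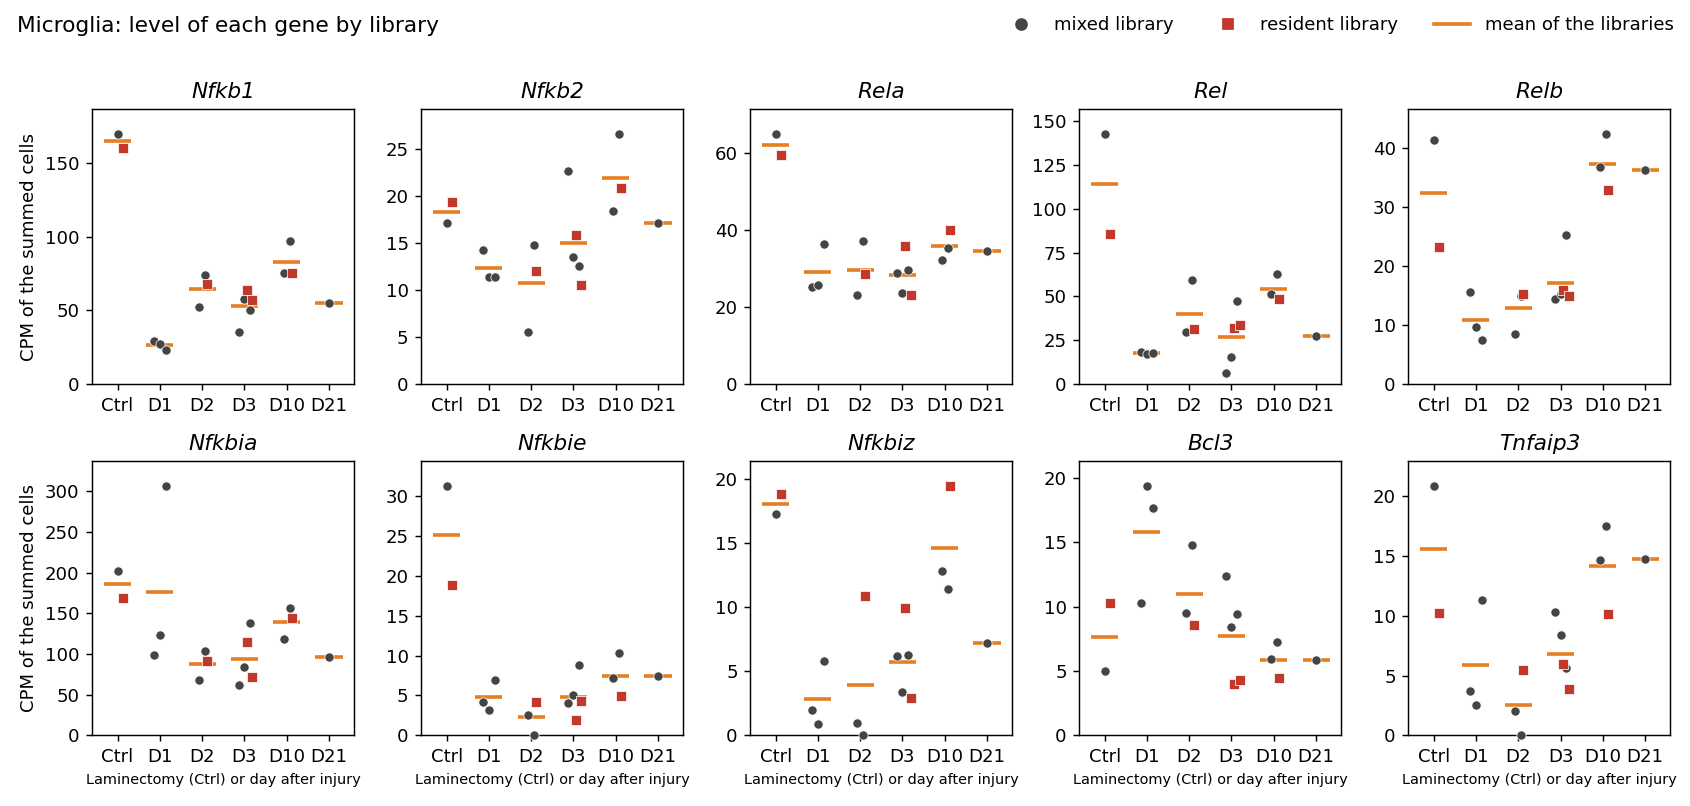
Level of each of the 10 genes in microglia (y axis, CPM of the summed cells) by time point (x axis); each point is 1 library, circles are mixed and squares resident libraries, and the bar is the mean. Nfkb1, Rel and Nfkbie were highest in the controls and low on D1 to D3, while Bcl3 was highest at D1.

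On D2 and D3, Nfkb1, Rel and Nfkbie stayed below the controls in microglia. Nfkb1 stood at 68.0, 52.1 and 74.0 CPM in the D2 libraries and at 63.5, 57.3, 35, 57.4 and 50.3 CPM in the D3 libraries. No injured library reached the controls. The log2 differences from Ctrl were -1.03 ± 0.266 (SE; edgeR adjusted p = 0.0085) at D2 and -1.07 ± 0.240 (edgeR adjusted p = 0.00262) at D3.

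Rel stood at 31.3, 29.6 and 59.2 CPM at D2 and at 31.8, 33.7, 6.18, 15.2 and 47.2 CPM at D3, all below the lower control. Its log2 differences from Ctrl were -1.36 ± 0.454 (SE; edgeR adjusted p = 0.0321) at D2 and -1.38 ± 0.410 (edgeR adjusted p = 0.0144) at D3. Nfkbie stood at 4.23, 2.51 and 0 CPM at D2 and between 1.99 and 8.80 CPM, with a median of 4.33 CPM, at D3. The library at 0 was D2 mixed 2, with 23 microglia and 135097 UMIs, in which a count of 0 allows up to 22.2 CPM by counting error. The log2 differences of Nfkbie were -2.56 ± 0.518 (SE; edgeR adjusted p = 0.00189) at D2 and -1.82 ± 0.492 (edgeR adjusted p = 0.00859) at D3. Rela, at 28.6, 23.1 and 37.0 CPM on D2 against 64.9 and 59.3 CPM in the controls, passed at D2 (log2 -0.78 ± 0.278 SE, edgeR adjusted p = 0.0421).

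These counts were 0 higher and 4 lower of 10 at D2, where 17.6% of genes were called higher and 12.2% lower, and 0 higher and 3 lower at D3, where 20.1% and 17.6% were. The members' median log2 difference was -1.03 at D2 and -0.73 at D3, against -0.02 and -0.04 over all genes. Without Ctrl mixed 1, 0 members were called at D2 and 1 at D3, where Nfkb1 was the one kept. Without D2 mixed 1, 1 member was called at D2. With the sequencing pool as a term, 0 were called on either day. At D2 the log2 differences were then -0.83 for Nfkb1 (edgeR adjusted p = 0.0866), -1.10 for Rel (0.0513), -0.66 for Rela (0.222) and -1.70 for Nfkbie (0.064), and at D3 -0.90 for Nfkb1 (0.449), -0.40 for Rel (0.912) and 0.32 for Nfkbie (0.956). No D3 library in this fit shared a pool with a control, so the D3 values rest on D2 libraries that link the pools. In CPM, every D3 library lay below both controls for Nfkbie. With mixed libraries alone, Nfkb1 (edgeR adjusted p just above 0.05), Rel (0.105) and Rela (0.0977) were lost at D2 with larger differences (log2 -1.27, -1.84 and -1.06), and Relb (-1.84, 0.0463) was called. At D3, Nfkb1 (log2 -1.50), Rel (-2.63) and Nfkbie (4.19) were lost there. In CPM, every D3 library lay below Ctrl mixed 1 for Nfkbie, against the positive fitted value. In mixed libraries the control was female and all D3 libraries were male. Day and sex were thus told apart only through D2 mixed 1 and 2. By total counts alone, 7 members were called at D2 and 8 at D3, and calls over all genes went from 1896 higher and 1314 lower to 1265 and 2617 at D2, and from 2168 and 1896 to 1176 and 3956 at D3.

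Other lists and markers moved on these days too. Of 18 immediate early and heat shock genes, 2 were called higher and 6 lower at D2 (median -1.10) and again at D3 (median -1.30). The microglia markers added up to 7091 to 13263 CPM at D2 and 11024 to 14652 CPM at D3, and the macrophage markers to 840 to 1229 CPM and 1124 to 3171 CPM. The part of these shifts in the members' differences was not tested.

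The calls that turned on a single library were these. At D2, Nfkb1 was lost without Ctrl mixed 1 (edgeR adjusted p = 0.106) or D2 mixed 1 (0.0955). Rel at D2 was lost without Ctrl mixed 1 (0.338), D2 resident 1 (0.0905) or D2 mixed 1 (0.216), and at D3 without Ctrl mixed 1 (0.195). Nfkbie was lost without Ctrl mixed 1 on D2 (0.0849) and D3 (0.157). Rela at D2 was lost on leaving out any of 9 libraries, from an edgeR adjusted p of 0.0517 without D1 mixed 1 to 0.317 without D2 mixed 1. The other 7 were both controls (0.208 and 0.149), D1 mixed 2 (0.059), D2 resident 1 (0.0577) and the 3 D10 libraries (0.0547, 0.0634 and 0.0651).

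At D2, other calls were gained. DESeq2 and median-of-ratios scaling in edgeR called Relb (adjusted p = 0.0284 and 0.0339) and Tnfaip3 (0.0338 and 0.0423), and Tnfaip3 was called with no expression filter (0.0277), where Rela was not (0.0708). At D3, DESeq2 called Rela (log2 -0.66, adjusted p = 0.0386). Relb at D2 (log2 -1.03, edgeR adjusted p = 0.0536) was called on leaving out any of 7 libraries, from 0.0211 without Ctrl resident 1 to 0.0499 without D3 resident 2. The others were D1 mixed 3 (0.0465), D2 resident 1 (0.0428), D3 mixed 2 (0.0477), D3 mixed 3 (0.045) and D21 mixed 1 (0.0492). Tnfaip3 at D2 (log2 -1.66, edgeR adjusted p = 0.056) was called on leaving out any of 6 libraries, from 0.0207 without D1 mixed 3 to 0.0493 without D3 mixed 2. The others were Ctrl resident 1 (0.0286), D1 mixed 2 (0.0477), D2 resident 1 (0.0391) and D3 resident 2 (0.0476). Nfkbiz, at 10.9 CPM in D2 resident 1 and 1.00 and 0 CPM in D2 mixed 1 and 2, was called without D2 resident 1 (log2 -3.99, edgeR adjusted p = 0.00759).

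Between D1 and D3, Nfkb1 rose and Bcl3 and Nfkbia fell in microglia. Nfkb1 was higher in each D3 library than in each D1 library (log2 0.88 ± 0.226 SE, edgeR adjusted p = 0.0128). Bcl3 fell from 10.3, 19.4 and 17.6 CPM at D1 to 3.97, 4.33, 12.4, 8.44 and 9.43 CPM at D3, with D3 mixed 1 above the lowest D1 library (log2 -1.18 ± 0.358 SE, edgeR adjusted p = 0.0291). Nfkbia was at 115, 71.3, 61.8, 84.4 and 138 CPM at D3, inside the range of the D1 libraries for 2 of 5 (log2 -1.08 ± 0.331 SE, edgeR adjusted p = 0.031).

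That made 1 member higher and 2 lower, with 8.62% of genes called higher and 10.2% lower. The result for Nfkbia rests on D1 mixed 3: without it the log2 difference was -0.40 (edgeR adjusted p = 0.358), and Nfkb1 (0.0539) and Bcl3 (0.0725) were not called either. Nfkbia was also lost without D3 resident 2 (0.0839) or D3 mixed 2 (0.0584), and Bcl3 without D1 mixed 2 (0.123) or D3 resident 2 (0.117). With the sort as a term, Nfkbia (0.0523) and Bcl3 (0.0687) were lost, and with mixed libraries alone all 3 were (0.154, 0.177 and, for Nfkb1, 0.102). The days lay largely in different clusters, since cluster 5 took 69.55% of its cells from D1 and 8.23% from D3, and clusters 3 and 6 took 1.17% and 2.24% from D1 and 24.86% and 40.79% from D3. With total-count scaling, 1 member was called and calls over all genes went from 931 higher and 1099 lower to 1181 and 761. Of 18 immediate early and heat shock genes, 2 were called higher and 5 lower (median -0.73), and the median sum of the microglia markers went from 7223 CPM at D1 to 13119 CPM at D3. The part of these shifts was not tested, and pool and day cannot be told apart here.

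By D10 no member in microglia passed against the controls on the fitted scale, and the most negative difference was that of Nfkbie. Nfkb1 stood at 75.4, 75.2 and 97.4 CPM, still below both controls in CPM (log2 -0.42 ± 0.255 SE, edgeR adjusted p = 0.339). Nfkbie stood at 4.88, 7.15 and 10.3 CPM (log2 -1.28 ± 0.456 SE, edgeR adjusted p = 0.0861), and it was called without Ctrl resident 1 (log2 -2.14, edgeR adjusted p = 0.0418) and with the pool as a term (-1.30, 0.0296). Relb, the partner of p52 in the non-canonical pathway, stood at 32.8, 36.8 and 42.3 CPM, against 41.3 and 23.2 CPM in the controls, so that the groups overlapped.

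At D10, 0 of 10 members passed against Ctrl, where 8.06% of genes were called higher and 2.22% lower. Of the 10, 2 had an unadjusted p under 0.05 (Nfkbie lower, Nfkb2 higher), and DESeq2 also called 0. At D21, with the single library D21 mixed 1, 0 of 10 passed, where 6.12% of genes were called higher and 0.861% lower. There 1 member, Relb (36.1 CPM), had an unadjusted p under 0.05, and DESeq2 called 0. By total counts alone, Nfkb1 (log2 -1.01), Nfkbie (-1.87) and Rela (-0.78) were called lower at D10 and Nfkb1 (-1.56) and Rel (-2.10) at D21. Calls over all genes then went from 871 higher and 240 lower to 494 and 2161 at D10, and from 661 and 93 to 317 and 1845 at D21.

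From D3 to D10, Relb rose in microglia. All 3 D10 libraries (32.8, 36.8 and 42.3 CPM) lay above all 5 D3 libraries (15.9, 14.9, 14.4, 15.2 and 25.1 CPM), with a log2 difference of 1.1 ± 0.299 (SE; edgeR adjusted p = 0.038). This was 1 of 10 members higher and 0 lower, with 2.96% of genes called higher and 3.92% lower. The call was lost on leaving out any of 8 libraries, from an edgeR adjusted p of 0.0568 without D1 mixed 2 and 0.0576 without D3 resident 1 to 0.216 without D10 mixed 2. The others were D3 resident 2 (0.0905), D3 mixed 1 (0.0705), D3 mixed 2 (0.0724), D10 resident 1 (0.0845) and D10 mixed 1 (0.115). It was also lost with mixed libraries alone (log2 1.02, 0.144) and without cluster 2 (1.04, 0.059), and with the pool as a term the fitted difference was -0.79 and not called. The D3 and D10 sums in that fit shared no pool, so the value rests on D2 libraries that link the pools. Cluster 4, at 37.6 CPM for Relb, took 64.71% of its cells from D10 and 10.09% from D3, and cluster 6, at 12.5 CPM, took 8.38% and 40.79%. DESeq2 called Nfkb1 higher (log2 0.65, adjusted p = 0.0137). Rel was called higher when D3 mixed 3 was left out (log2 1.18, edgeR adjusted p = 0.0358). Of 18 immediate early and heat shock genes, 6 were called higher and 2 lower (median 0.98). In the same sums the 10 dendritic cell markers added up to 64.2 to 120 CPM at D3, where Clec9a was at 0, and to 199 to 355 CPM at D10, where Clec9a and Ccr7 were. The 10 neutrophil markers went from 41.2 to 81.1 CPM to 104 to 164 CPM, with Ly6g at 0 on both days. What part these genes had in the difference of Relb was not tested.

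Macrophages were present after injury only, so D1 was their reference. Nfkbia was the member with a fall over time. It stood at 504, 649, 475 and 929 CPM in D1 infiltrating 1 and 2 and D1 mixed 1 and 3, at 730, 194 and 315 CPM at D2, at 412 and 119 CPM at D3, and at 213, 222, 132 and 101 CPM at D10. All 4 D10 libraries lay below all 4 D1 libraries (log2 -1.90 ± 0.439 SE, edgeR adjusted p = 0.013), and this call was kept in every alternative that could be fitted. In the 2 libraries of D21 it was 291 and 254 CPM (log2 -1.1 ± 0.558 SE against D1, edgeR adjusted p = 0.266). The D10 and D1 macrophages shared no sequencing pool, so pool and day cannot be told apart. They also fell into different deposited clusters: clusters 8, 11 and 12 took 36.66%, 38.85% and 33.48% of their cells from D1 and 0.86%, 0.13% and 0.44% from D10, while cluster 9 took 1.52% from D1 and 16.57% from D10.

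Tnfaip3 was spread widely at D1. It stood at 8.13 and 15.4 CPM in the 2 infiltrating libraries and at 67.8 and 55.9 CPM in the 2 mixed ones, which had 28 and 54 macrophages. At D10 it stood at 8.92, 18.2, 6.51 and 2.22 CPM, overlapping the infiltrating D1 libraries (log2 -1.63 ± 0.707 SE, edgeR adjusted p = 0.134). It was called without D1 infiltrating 1 (log2 -2.23, edgeR adjusted p = 0.0438) and with mixed libraries alone (-3.76, 0.00233). Bcl3 stood at 54.9, 22.2, 25.4 and 41.4 CPM at D1 and at 16.4, 19.8, 14.6 and 21.1 CPM at D10, just below the lowest D1 library (log2 -0.97 ± 0.373 SE, edgeR adjusted p = 0.0938). Nfkbie stood at 23.7, 19.7, 21.2 and 34.1 CPM at D1 and at 10.4, 16.5, 8.14 and 6.66 CPM at D10, also without overlap (log2 -1.19 ± 0.478 SE, edgeR adjusted p = 0.107). It was called without D3 infiltrating 1 (edgeR adjusted p = 0.035) or D3 mixed 3 (0.0336).

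The factors showed no such fall in macrophages. At D10 against D1, Nfkb1 gave a log2 difference of 0.28 (95% interval -0.50 to 1.06), Rel 0.54 (-0.05 to 1.12), Rela -0.23 (-0.81 to 0.35), Relb -0.16 (-1.16 to 0.85) and Nfkb2 -0.57 (-1.53 to 0.39). These intervals hold changes in either direction, so they do not show that the levels were equal. Across the D10 comparison 0 members were called higher and 1 lower, with 7.31% of 8577 genes called higher and 7.04% lower. The members' median log2 difference was -0.40, against 0.01 over all genes.

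At D2 and D3, 0 members passed in macrophages, and so did 0 of all genes (0% higher and 0% lower on each day by edgeR). Of all genes, 123 had an unadjusted p under 0.05 at D2 and 612 at D3, and DESeq2 called 0 and 16. Among members, the unadjusted p was under 0.05 for Nfkb2 and Bcl3 at D2 and for Rel and Nfkbia at D3. The 2 libraries of D3 stood apart: Nfkb1 was 126 CPM in D3 infiltrating 1 and 20.1 CPM in D3 mixed 3, and Rel 142 and 39.6 CPM. Of the cells in cluster 9, 79.9% were from D3, and D3 mixed 3 gave 2676 of its 3554 cells. With the D3 library of conflicting labels added as infiltrating, 0 members were called at D3. In mixed libraries alone, where D3 mixed 3 is the single D3 library, 4 members were called lower at D3. At D21, 0 members passed, with 1.95% of genes called higher and 1.61% lower. No member had an unadjusted p under 0.05 at D21, and DESeq2 called 0. By total counts alone the calls over all genes at D21 went from 167 higher and 138 lower to 135 and 169.

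**Figure D2:**
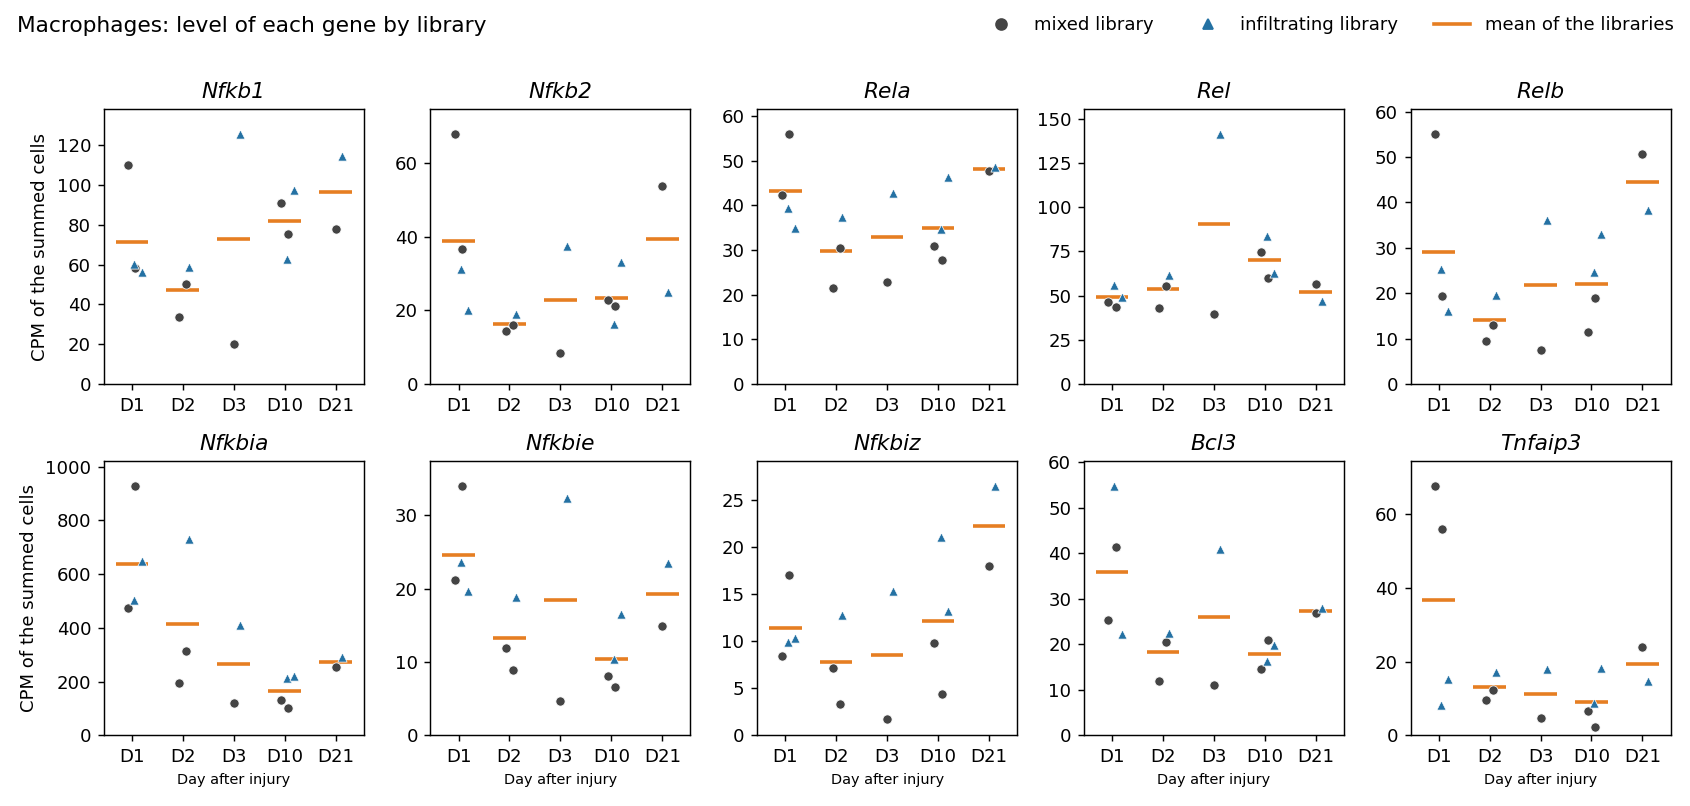
Level of each of the 10 genes in macrophages (y axis, CPM of the summed cells) by day after injury (x axis); each point is 1 library, the shape gives the sort, and the bar is the mean. All 4 D10 libraries of Nfkbia lay between 101 and 222 CPM, below the 4 D1 libraries at 475 to 929 CPM.

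The change from D1 to D10 was then compared between macrophages and microglia in a single fit of 32 sums and 11486 genes. The sums came from 24 libraries, since some mixed libraries gave a sum of each cell type, and with no library term they were treated as independent. A negative value means that macrophages fell more, or rose less, than microglia. Tnfaip3 gave -2.83 ± 0.876 (SE; edgeR adjusted p = 0.0353). Its mean was 36.8 ± 29.5 CPM (SD, n = 4) at D1 and 8.96 ± 6.75 CPM (n = 4) at D10 in macrophages, and 5.89 ± 4.79 CPM (n = 3) and 14.1 ± 3.69 CPM (n = 3) in microglia.

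Relb gave -1.85 ± 0.590 (SE; edgeR adjusted p = 0.0396). It was 29.0 ± 17.8 CPM (SD, n = 4) at D1 and 22.0 ± 9.18 CPM (n = 4) at D10 in macrophages, and 10.9 ± 4.18 CPM and 37.3 ± 4.75 CPM (n = 3 each) in microglia. Nfkb1 gave -1.37 ± 0.452 (SE; edgeR adjusted p = 0.0455), with 71.2 ± 26 CPM and 81.7 ± 15.7 CPM in macrophages and 26.4 ± 2.89 CPM and 82.6 ± 12.8 CPM in microglia. In both genes the larger step was in microglia.

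These were 3 of 10 members lower and 0 higher, with 6.12% of genes called lower and 6.45% higher. The members' median was -1.41 and that of all genes -0.05. Of 20 immediate early and heat shock genes 7 were also called lower and 0 higher (median -1.64), and of 29 target genes 9 were lower and 0 higher (median -1.34). The part of these genes in the members' differences was not tested. All 3 calls were near the threshold. Tnfaip3 was lost without D1 mixed 1 (edgeR adjusted p = 0.141), D1 mixed 2 (0.0968), D10 mixed 1 (0.107) or D10 mixed 2 (0.158). Relb was lost without D1 infiltrating 1 (0.0593), D1 mixed 1, 2 or 3 (0.0605, 0.0926 and 0.083), D10 mixed 1 (0.128) or D10 mixed 2 (0.174).

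Nfkb1 was lost on leaving out any of 15 libraries, with an edgeR adjusted p from 0.0508 to 0.203. They were both controls (0.0508 and 0.0509), all 5 D1 libraries (0.0628 and 0.0664 for the infiltrating, 0.122, 0.0891 and 0.0761 for the mixed), D2 resident 1 (0.0509), D2 mixed 1 and 2 (0.0535 and 0.0625), D10 infiltrating 1 (0.0705), D10 resident 1 (0.0579), D10 mixed 1 and 2 (0.102 and 0.203) and D21 mixed 1 (0.0511). With total-count scaling its value was -1.46 (0.0706). Nfkbie was called without D3 infiltrating 1 (0.0314) or D3 mixed 3 (0.0253), and Nfkbia without D1 mixed 3 (0.0419). With at least 50 cells a sum, which drops D1 mixed 1 among macrophages, 0 members were called. Nfkb1 (0.0854) and Relb (0.0567) were lost without cluster 2, and Nfkb1 also with no expression filter (0.0658) and with mixed libraries alone (0.0518). Nfkb2 (0.0222 with the pool term, 0.0393 with mixed libraries alone) and Nfkbie (0.036 with the sort term, 0.0297 with mixed libraries alone) were gained.

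Cell types of the same library share their mice, sort, capture and sequencing pool, and they were compared within libraries. On D1 to D3, 4 of the 5 inhibitors or feedback regulators and 2 of the 5 factors were higher in macrophages than in microglia of the same 8 libraries. Nfkbia ranged from 119 to 929 CPM in macrophages and from 67.7 to 307 CPM in microglia. The ranges overlapped, and within libraries macrophages were higher in 7 of 8, the exception being D3 mixed 3 (119 against 138 CPM). The means were 351 ± 256 CPM against 124 ± 77.2 CPM (SD, n = 8), with a log2 difference of 1.30 ± 0.188 (SE; edgeR adjusted p = 4.32e-06). Tnfaip3 was higher in 7 of 8, with D3 mixed 3 again the exception (4.67 against 5.66 CPM), at 25.9 ± 23.5 CPM against 4.76 ± 3.35 CPM (log2 1.84 ± 0.334 SE, edgeR adjusted p = 8.35e-05). Nfkbie was higher in 7 of 8, at 17.3 ± 10.5 CPM against 4.12 ± 2.78 CPM (log2 1.39 ± 0.319 SE, edgeR adjusted p = 0.001). The calls of Nfkbia and Tnfaip3 were kept in every alternative that could be fitted.

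Bcl3 was also higher in macrophages in 7 of 8 libraries (log2 0.88 ± 0.281 SE, edgeR adjusted p = 0.0133). Among factors, Rel (6 of 8, log2 0.62 ± 0.158 SE, edgeR adjusted p = 0.00261) and Nfkb2 (7 of 8, log2 0.69 ± 0.276 SE, edgeR adjusted p = 0.047) were higher. For Nfkb1 the log2 difference was 0.02 (95% interval -0.43 to 0.48), for Relb 0.16 (-0.45 to 0.78) and for Rela 0.20 (-0.13 to 0.52). Nfkbiz was higher in 7 of 8 libraries but did not pass (log2 0.87 ± 0.366 SE, edgeR adjusted p = 0.0582). It was called without D3 mixed 3 (log2 1.33, edgeR adjusted p = 0.0013), by total counts (0.0428) and with no expression filter (0.0454).

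So 6 of 10 members were higher and 0 lower, with 20.6% of 9817 genes called higher and 22.1% lower. The members' median was 0.78 and that of all genes 0.00. The call of Nfkb2 was lost without D1 mixed 1 (edgeR adjusted p = 0.172), D1 mixed 3 (0.129), D2 infiltrating 1 (0.0515), D2 mixed 1 (0.0782), D2 mixed 2 (0.059), D3 resident 1 (0.0544) or D3 resident 2 (0.0828). It was also lost without the cells whose barcode occurred in more than 1 library (0.0563), with median-of-ratios scaling (0.0573), with at least 50 cells (log2 0.48, 0.26) and without cluster 2 (0.47, 0.244). With mixed libraries alone, Bcl3 (log2 0.72, edgeR adjusted p = 0.102), Rel (0.54, 0.143), Nfkbie (1.22, 0.146) and Nfkb2 (0.93, 0.125) were lost. Of the 20 immediate early and heat shock genes 18 were tested in this comparison, with 10 called higher in macrophages and 0 lower. The part of these genes in the members' differences was not tested.

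**Figure D3:**
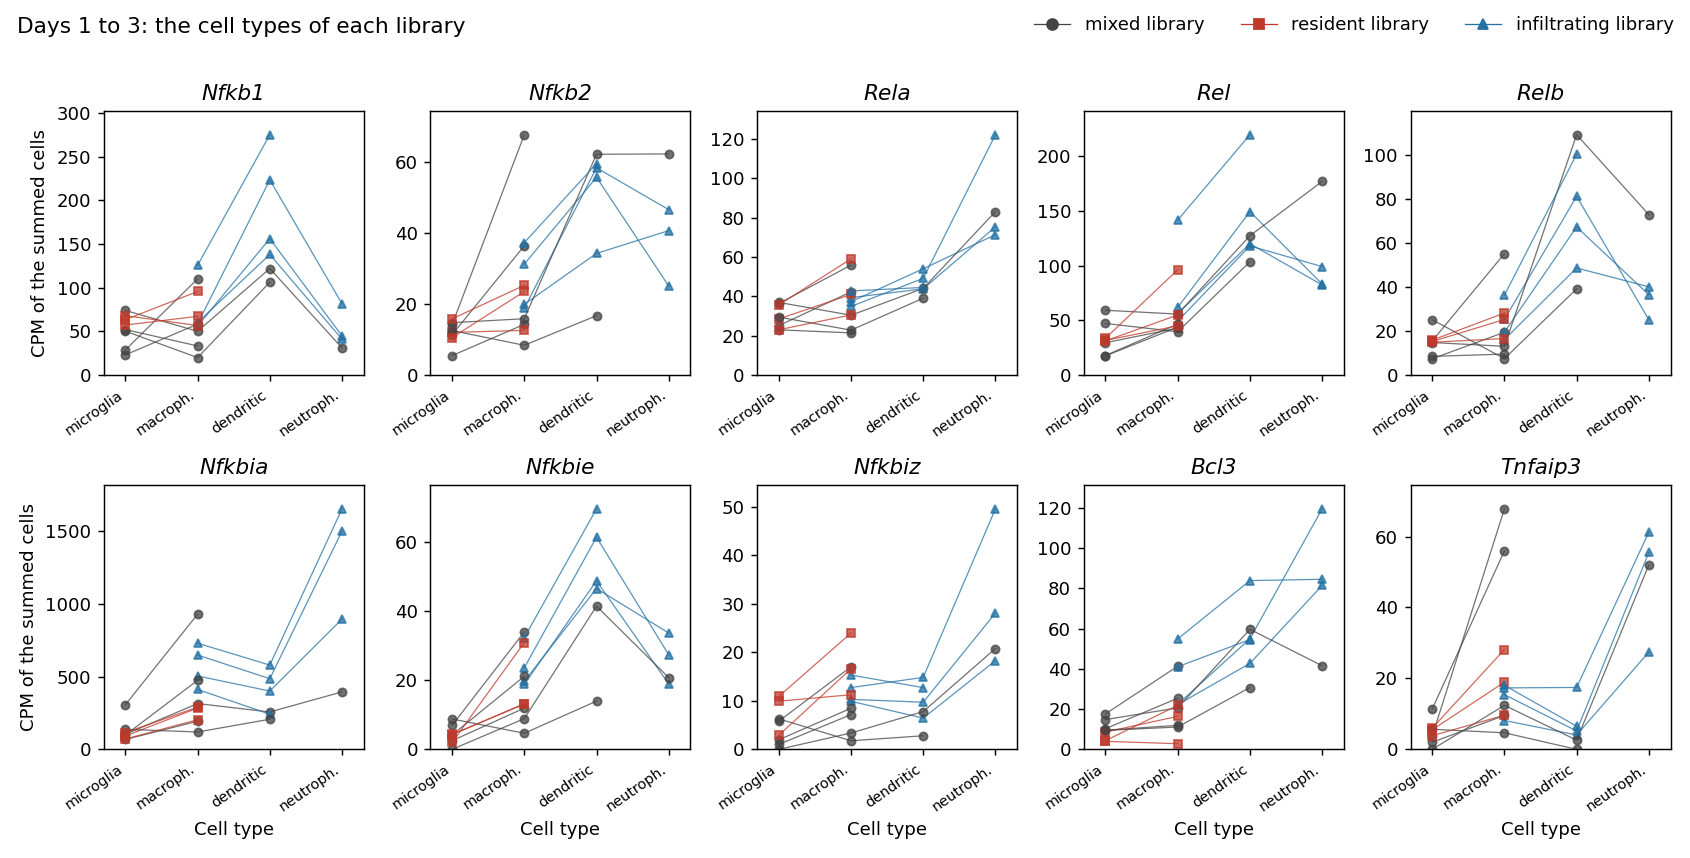
Level of each gene on D1 to D3 (y axis, CPM of the summed cells) in microglia, macrophages, dendritic-like and neutrophil-like cells (x axis); each line joins the cell types of 1 library and the colour and shape give its sort. Nfkbia and Tnfaip3 were higher in neutrophil-like cells than in macrophages in 4 of 4 libraries, and Nfkb1 and Relb were higher in dendritic-like cells in 6 of 6.

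Neutrophil-like cells had higher levels than macrophages of 4 of the 5 inhibitors or feedback regulators, in the 4 libraries that held both. Nfkbia stood at 896, 1501, 1654 and 395 CPM in neutrophil-like cells of D1 infiltrating 1 and 2, D2 infiltrating 1 and D2 mixed 2, against 504, 649, 730 and 315 CPM in their macrophages. It was higher in 4 of 4 (log2 0.83 ± 0.243 SE, edgeR adjusted p = 0.0055). Tnfaip3 stood at 27.4, 55.5, 61.3 and 52.0 CPM against 8.13, 15.4, 17.3 and 12.4 CPM, with no overlap (log2 1.69 ± 0.351 SE, edgeR adjusted p = 0.000262). Bcl3 stood at 84.6, 81.5, 120 and 41.6 CPM against 54.9, 22.2, 22.4 and 20.6 CPM and was higher in 4 of 4 (log2 1.53 ± 0.280 SE, edgeR adjusted p = 6.55e-05).

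Nfkbiz stood at 18.3, 28.1, 49.6 and 20.8 CPM against 9.91, 10.3, 12.7 and 3.37 CPM (log2 1.54 ± 0.369 SE, edgeR adjusted p = 0.00114). Its groups did not overlap, and its call was kept in every alternative that gave it a value. It had no value with mixed libraries alone, where no other member was called. Rela stood at 75.4, 122, 71.5 and 83.2 CPM against 39.4, 35, 37.4 and 30.5 CPM, also with no overlap (log2 1.19 ± 0.191 SE, edgeR adjusted p = 1.41e-05). Rel (4 of 4, log2 0.67 ± 0.196 SE), Relb (3 of 4, 0.98 ± 0.350 SE) and Nfkb2 (3 of 4, 0.81 ± 0.319 SE) were called higher as well. Nfkb1 (log2 -0.27, 95% interval -0.90 to 0.36) and Nfkbie (0.42, -0.27 to 1.11) were not called.

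This gave 8 of 10 members higher and 0 lower, with 21.9% of genes called higher and 32.3% lower. The median over members was 0.91 and over all genes -0.27. The neutrophil-like sums were shallow, with 51 cells and 96190 UMIs in D2 mixed 2. Without D1 infiltrating 2, 5 members were called, and Nfkb2 (edgeR adjusted p = 0.208), Rel (0.0619) and Relb (0.188) were not. Nfkb2 was also lost without D2 infiltrating 1 (0.125), D2 mixed 2 (0.0792) or the shared barcodes (0.0503), and Relb without D2 mixed 2 (0.0555). With mixed libraries alone, where D2 mixed 2 was the single library with both cell types, 0 members were called. The log2 differences were then smaller for Nfkbia (0.15, edgeR adjusted p = 0.898) and Bcl3 (0.61, 0.674). They were larger for Relb (1.76, 0.367), Nfkb2 (1.24, 0.481), Rel (1.18, 0.215) and Tnfaip3 (1.74, 0.443), and 1.06 for Rela (0.314). Of 18 immediate early and heat shock genes, 8 were called higher in neutrophil-like cells and 3 lower, and their part in the members' differences was not tested.

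In dendritic-like cells, 4 of the 5 factors were higher than in macrophages, and of the 5 inhibitors or feedback regulators 2 were higher and 1 lower. Nfkb1 stood at 138, 156, 223, 122, 275 and 106 CPM in dendritic-like cells of 6 libraries on D1 to D3, against 60.3, 56.2, 58.6, 50.2, 126 and 20.1 CPM in their macrophages. It was higher in dendritic-like cells in 6 of 6 (means 170 ± 65.5 against 61.8 ± 34.6 CPM, SD). The log2 difference was 1.29 ± 0.225 (SE; edgeR adjusted p = 6.5e-05). Relb, which dendritic cells need for their development and maturation, stood at 74.2 ± 27.8 CPM against 19.6 ± 10.1 CPM and was higher in 6 of 6 (log2 1.70 ± 0.254 SE, edgeR adjusted p = 9.06e-06). Rel (log2 0.92 ± 0.154 SE, edgeR adjusted p = 3.71e-05) and Nfkb2 (0.93 ± 0.239 SE, edgeR adjusted p = 0.00347) were higher in 6 of 6, and Rela did not pass (0.22, 95% interval -0.10 to 0.53).

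The inhibitors or feedback regulators split in dendritic-like cells. Nfkbie (47.0 ± 19.2 against 18.0 ± 10.0 CPM, log2 1.23 ± 0.240 SE, edgeR adjusted p = 0.000229) and Bcl3 (54.4 ± 17.9 against 28.7 ± 16.1 CPM, log2 0.79 ± 0.225 SE, edgeR adjusted p = 0.0083) were higher in 6 of 6. Tnfaip3 was lower in 5 of 6, at 5.97 ± 6.06 against 12.7 ± 5.35 CPM (log2 -1.24 ± 0.322 SE, edgeR adjusted p = 0.0039). In D3 mixed 3 it was 0 CPM of 357713 UMIs, which allows up to 8.39 CPM, and in D2 infiltrating 1 it was 17.5 CPM against 17.3 CPM in the macrophages. Nfkbia was lower in 5 of 6 and did not pass (log2 -0.47 ± 0.204 SE, edgeR adjusted p = 0.0801).

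Of the 10 members, 6 were higher and 1 lower, with 15.4% of genes called higher and 17.5% lower. The median was 0.85, against -0.01 over all genes. No library changed a call when left out, but with mixed libraries alone all 7 were lost (edgeR adjusted p from 0.0576 for Relb to 0.349 for Nfkbie). Their log2 differences were then 2.19 for Relb, 1.27 for Nfkb1, 1.11 for Nfkb2, 0.93 for Rel, 1.44 for Nfkbie, 1.30 for Bcl3 and -3.07 for Tnfaip3, with the same signs as in all libraries. Of 18 immediate early and heat shock genes, 2 were called higher in dendritic-like cells and 8 lower (median -0.92), and their part in the members' differences was not tested. Scaled by total counts, calls over all genes went from 1513 higher and 1717 lower to 1778 and 1307.

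On D10 and D21, the gap between macrophages and microglia was called for Bcl3 alone. Bcl3 was higher in macrophages in 6 of 6 libraries, at 19.9 ± 7.15 CPM against 3.91 ± 3.16 CPM (SD, n = 6), with a log2 difference of 1.69 ± 0.373 (SE; edgeR adjusted p = 0.00754). Microglia of D10 infiltrating 2 (36 cells) and D21 infiltrating 1 (41 cells) had a count of 0, which allows up to 35.7 and 23.4 CPM. Their macrophages stood at 19.8 and 28.0 CPM, so the order in D10 infiltrating 2 is uncertain by counting error. Nfkbia was 192 ± 74.7 against 115 ± 31.8 CPM, higher in 5 of 6 (log2 0.61 ± 0.297 SE, edgeR adjusted p = 0.223). Tnfaip3 gave -0.04 (95% interval -1.17 to 1.1). This was 1 of 10 higher and 0 lower, with 6.69% of 7267 genes called higher and 5.71% lower. Of 15 immediate early and heat shock genes tested, 5 were called higher in macrophages and 0 lower (median 0.21). Their part in the members' differences was not tested. Whether the gap of any member differed between the early and the late days was not tested.

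Dendritic-like cells were compared with macrophages in 3 late libraries, and 0 members passed, with 2.13% of genes called higher and 1.79% lower. Nfkb1 was higher in 3 of 3, at 168 ± 48.1 against 91.7 ± 26.5 CPM (log2 1.22 ± 0.344 SE, edgeR adjusted p = 0.0671). Nfkbie was also higher in 3 of 3 (log2 1.56 ± 0.465 SE, edgeR adjusted p = 0.0842). Unadjusted p was under 0.05 for these 2, Rel and Bcl3, and DESeq2 called 1 member, Nfkb1 (log2 1.25, adjusted p = 0.0292). With no expression filter, edgeR called Nfkb1 (adjusted p = 0.0251) and Nfkbie (0.0493). By total counts alone the calls over all genes went from 155 higher and 130 lower to 121 and 192.

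**Figure D4:**
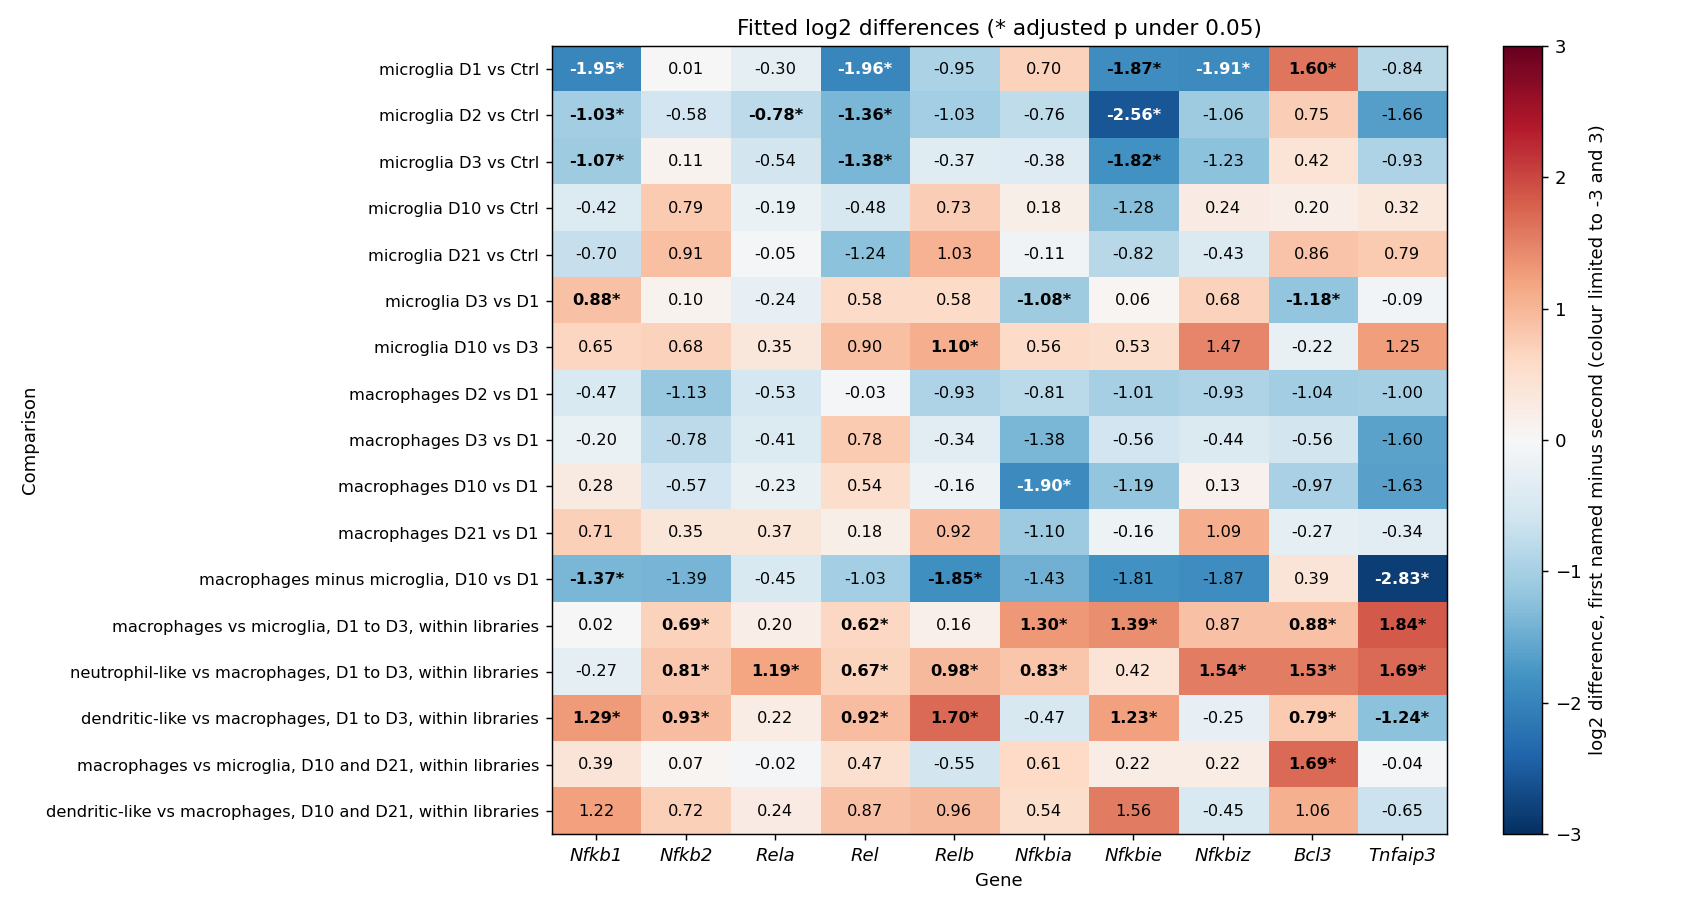
Fitted log2 difference of each gene (columns) in each comparison (rows), first named minus second; colour runs from -3 to 3 and a star marks an adjusted p under 0.05 by edgeR. The early rows of microglia are mostly negative for Nfkb1, Rel and Nfkbie, and the rows for macrophages, neutrophil-like and dendritic-like cells on D1 to D3 hold most of the positive calls.

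The 16 deposited clusters give a finer description, without a test, since they were made from the same cells. Their levels are CPM of all cells of a cluster pooled, in which large libraries weigh most, and medians are over the libraries with at least 20 of its cells. Cluster 1, 1887 microglia all from Ctrl, stood at 167 CPM for Nfkb1 and 129 CPM for Rel. Clusters 2, 3, 5 and 6, which hold most injured microglia, stood between 31.9 and 51.3 CPM for Nfkb1 and between 20.1 and 29.7 CPM for Rel. Cluster 4 (1377 microglia, 64.7% from D10 and none from Ctrl) lay between them for Nfkb1 (115 CPM) and Rel (68.6 CPM), and stood at 20.6 CPM for Tnfaip3, against 18.3 CPM in cluster 1. In the 6 libraries with at least 20 of its cells, Nfkb1 ranged from 81.4 to 131 CPM in cluster 4. Cells of cluster 4 had a median of 5827 UMIs, against 2272 in cluster 3, which holds D10 cells too.

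Among macrophage clusters, cluster 12 (2043 cells) stood at 82.3 CPM for Bcl3 and 789 CPM for Nfkbia, and 786 of its cells were from the D3 library with conflicting labels. Cluster 13 (234 cells) stood at 62.7 CPM for Bcl3 and 39.3 CPM for Nfkbiz. By library medians the order of Bcl3 turned, with 60.4 CPM in cluster 12 and 82.5 CPM in cluster 13. The monocyte markers of cluster 12 added up to 12001 CPM, the largest sum of any cluster. Cluster 9 (3554 cells) stood at 29.3 CPM for Nfkb1 and 137 CPM for Nfkbia, and its macrophage markers added up to 24641 CPM. Over its 9 libraries the medians were 55.2 and 196 CPM, and D3 mixed 3 gave 2676 of its cells.

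Cluster 14, with 118 cells coded as macrophages, had the highest pooled level of the 16 for Tnfaip3 (139 CPM), Rela (136 CPM), Relb (101 CPM) and Nfkb2 (83.8 CPM). These levels rest on 48, 47, 35 and 29 counts. In the 2 libraries with at least 20 of its cells, Relb was at 0 and 127 CPM and Nfkb2 at 37.4 and 87.6 CPM. Its library medians of Tnfaip3 (85.3 CPM) and Rela (148 CPM) were again the highest, and those of Relb (63.6 CPM) and Nfkb2 (62.5 CPM) were below cluster 15 (68.4 CPM) and cluster 13 (71.5 CPM). Its cells had a median of 1488 UMIs, and its immediate early and heat shock genes added up to 8222 CPM, against 799 to 5240 CPM in the other clusters. The part of cell handling in cluster 14 was not tested. Of its 118 cells, 49 were from D2 resident 1. Cluster 15, the dendritic-like cells, had the highest pooled level of Nfkb1 (219 CPM), Rel (174 CPM) and Nfkbie (60.6 CPM). By library medians it was the highest for Nfkbie (47.7 CPM), while Nfkb1 (167 CPM) and Rel (123 CPM) were below cluster 14 (202 and 184 CPM) and Rel was also below cluster 13 (131 CPM). Cluster 16, the neutrophil-like cells, was highest for Nfkbia by either measure (982 CPM pooled, median 896 CPM), and 897 of its 2116 cells were from the D3 library with conflicting labels.

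**Figure D5:**
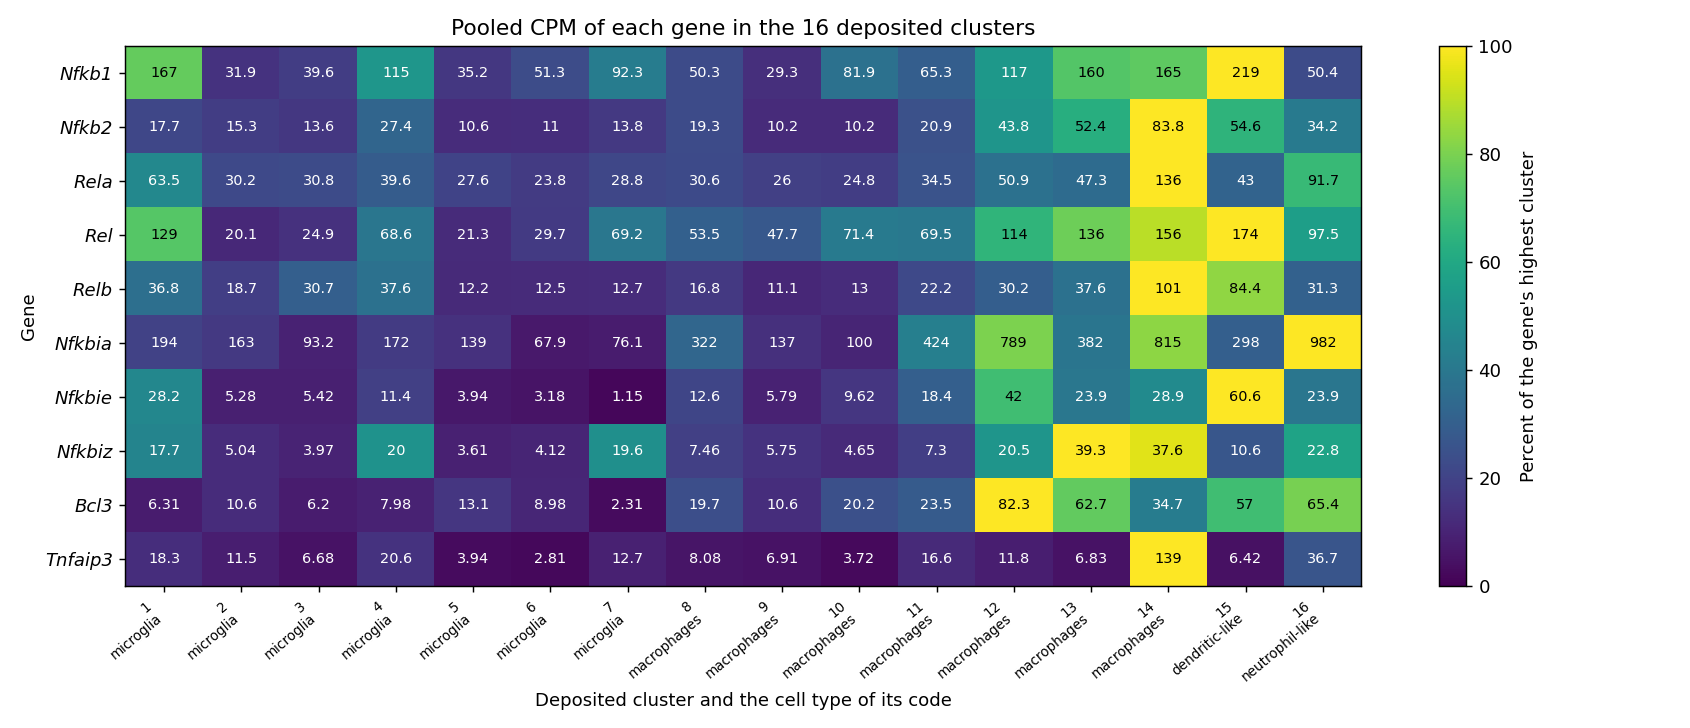
Pooled level of each gene (rows, CPM written in each cell) in the 16 deposited clusters (columns, with the cell type of most of their cells); colour is the percent of the gene's highest cluster. By pooled CPM, cluster 14 is highest for Tnfaip3, Rela, Relb and Nfkb2, and cluster 1, the control microglia, is far above clusters 2, 3, 5 and 6 for Nfkb1 and Rel.

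The rest of the pathway was followed through lists of receptors, adaptors and kinases, other inhibitors, and target genes. In microglia at D1, 14 of 28 tested target genes were called higher and 6 lower, with a median log2 difference of 1.63 against -0.01 over all genes, and against -0.89 over the members. The chemokine genes Ccl4 and Ccl3 were examples: Ccl4 stood at 1372 ± 901 CPM (SD, n = 3) at D1 and 25.7 ± 4.05 CPM (n = 2) in Ctrl (log2 6.36 ± 0.773 SE, edgeR adjusted p = 1.43e-05), and Ccl3 at 693 ± 289 against 22.6 ± 4.46 CPM. Cxcl2, another chemokine, was at 68.6 ± 116 CPM at D1 and at 1 count in both controls together. Irf1, Ccrl2 and Il1a were called lower, and Irf1, an interferon-response factor, fell from 53.1 ± 6.58 CPM to 7.33 ± 1.93 CPM.

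Of the 25 adaptors and kinases, 1 was called higher and 8 lower in the same comparison, with a median of -0.28, where 23.9% of all genes were called higher and 22.7% lower. Malt1, a protease of the CARD-BCL10 complex, fell from 56.8 ± 9.64 CPM (SD, n = 2) to 3.79 ± 1.16 CPM (n = 3), Birc2, a ubiquitin ligase, from 55.1 ± 12.8 to 4.90 ± 0.397 CPM, and Map3k14, the kinase of the non-canonical pathway, from 34.2 ± 0.411 to 5.27 ± 1.65 CPM. Ikbke, an IκB kinase-related kinase, was the one called higher, on 3 counts in Ctrl. Of 15 receptors, 1 was called higher (Cd14, a lipopolysaccharide co-receptor, 932 ± 220 against 649 ± 135 CPM), a share below the 23.9% of all genes. The 4 called lower, among them Tlr9, Tlr6 and Tnfrsf1b, were a share near the 22.7% of all genes.

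Of 17 other inhibitors, 4 were called higher and 4 lower (median -0.19), shares close to the 23.9% and 22.7% of all genes. Il1rn, the interleukin-1 receptor antagonist, rose from 0.897 ± 0.258 CPM to 69.7 ± 47.2 CPM (log2 7.07 ± 0.912 SE, edgeR adjusted p = 2.26e-05), and Nfkbib, which encodes IκBβ, from 30.8 ± 2.39 to 48.1 ± 8.22 CPM. Itch, N4bp1 and Cyld, regulators of ubiquitin signalling, were lower, and Cyld fell from 69.6 ± 0.70 to 16.1 ± 3.59 CPM. Of 18 immediate early and heat shock genes tested, 3 were higher (Atf3, Hsp90aa1 and Ier2) and 5 lower, with Btg2, Egr3 and Jun falling most.

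In macrophages from D1 to D10, 1 of 26 target genes was called higher and 12 lower, with a median log2 difference of -1.85 against 0.01 over all genes, of which 7.31% were called higher and 7.04% lower. Ccl2, a monocyte chemoattractant, fell from 5035 ± 2719 CPM to 33.4 ± 22.7 CPM (SD, n = 4 each; log2 -7.12 ± 0.779 SE, edgeR adjusted p = 0.000181), and Cxcl2 and Ccl4 fell too, while Ebi3 rose from 10.2 ± 11.1 to 35 ± 13.1 CPM. Of 18 other inhibitors, 0 were higher and 4 lower, among them Il1rn (272 ± 84.9 to 4.42 ± 2.45 CPM), Socs3 (226 ± 33.8 to 22.8 ± 7.23 CPM) and Traf1. Of 13 receptors 1 fell, Cd14 (1098 ± 503 to 87.9 ± 49.1 CPM), and of 23 adaptors and kinases 1 fell, Ikbkg (16.9 ± 3.32 to 6.84 ± 0.996 CPM), the regulatory subunit of the IκB kinase. Of 17 immediate early and heat shock genes, 0 were higher and 4 lower, Jun, Dusp1 and Klf6 among them, and their summed level went from 3136 to 3909 CPM at D1 to 1398 to 1783 CPM at D10. Over the same days the summed macrophage markers went from 10119 to 24946 CPM to 2398 to 7259 CPM, and the microglia markers went from 291 to 1396 CPM to 998 to 3345 CPM. What part these shifts had in the fall of Nfkbia was not tested.

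Between the members, levels went together to differing degrees. Over the 17 sums of microglia, the highest Pearson r of log2(CPM + 5) was 0.87, for Nfkb1 and Rel, and the lowest -0.63, for Relb and Bcl3. Over the 15 sums of macrophages, Nfkb2 and Relb gave the highest, 0.86. Other genes were compared with Nfkbia, Nfkbiz and Tnfaip3 where the member itself had a mean of at least 20 CPM, which Nfkbia alone of these 3 had. The genes most like Nfkbia, among those with a mean of at least 20 CPM, were Rassf1 (r = 0.89), Zfand5 (0.87) and Igsf6 (0.85) in microglia, of 5345 genes, and Cd53 (0.95), Snx18 (0.93) and Cd14 (0.93) in macrophages, of 5320. These values describe sums that share libraries, time points and depth, and carry no test.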

How the data were processed

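The raw UMI counts per gene and cell, with each cell's type, cluster and mitochondrial percent, were used as deposited by the authors. Per the submitters' processing notes, Cell Ranger 3.1.0 and the GRCm38 and mm10 builds were used. The values were whole numbers, and the count sum equalled the deposited total in all 30958 cells. The percent of mitochondrial counts, as deposited by the authors, was used only to describe the cells (at most 22.6%), and the shallowest cell had 713 UMIs. No cell was removed here and no doublet caller was run. The 2 matrices of the whole series were not used here.

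Counts were summed per library and cell type with at least 20 cells. The 10 genes and the other gene lists were chosen with earlier results of these data known. Cell type codes were named where a marker was at least 20 CPM and at least 2 times the level of the other types, with 5 CPM added. The sums were tested with edgeR 4.0.16 (quasi-likelihood test, TMM factors, filterByExpr, Benjamini-Hochberg adjustment over all genes tested, threshold 0.05) in R 4.3.3. The time fits had terms for time point and sex. The microglia fit held 17 sums of the resident and mixed libraries (135097 to 7794902 UMIs), and the macrophage fit held 15 sums of the infiltrating and mixed libraries (235999 to 22068469 UMIs). The interaction fit held 32 sums of 24 libraries. Within-library fits had the library as a block, with 30 sums of 12 libraries on D1 to D3 and 16 sums of 7 libraries on D10 and D21. The scripts were tested on simulated data.

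Genes outside the 10 were named as the up to 3 called genes with the largest fitted difference in each direction of each list. Intervals are at the 95% level, and a count of 0 was given the upper limit of 3 counts, for counting error only. Alternatives were median-of-ratios and total-count scaling, DESeq2 1.42.0, no expression filter, at least 50 cells, terms for pool or sort, mixed libraries alone, leaving out cluster 2, shared barcodes or each library, adding the D3 library with conflicting labels to the macrophage comparison of D3 with D1, and a replicate block. Each library pooled 1 to 3 mice, and the p-values measure the spread between libraries.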

Additional observations from a re-analysis of the deposited data

Results flagged for a closer look

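In the 5 D3 libraries of microglia, Relb stood apart in D3 mixed 3, at 25.1 CPM against 14.4 to 15.9 CPM in the others. In the 4 D1 libraries of macrophages, Nfkb1 stood apart in D1 mixed 1, at 110 CPM on 28 cells, against 56.2 to 60.3 CPM in the others. Of the groups of 4 or more libraries, 30 were tested for such a sample, and chance gives about 1 in 20.

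The change from D1 to D10 differed between macrophages and microglia for Nfkb1 (log2 -1.37), Relb (-1.85) and Tnfaip3 (-2.83), by the interaction test given above.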

How the results depend on the processing

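Of 42 member results past the threshold, 6 stayed past it with the same sign under every alternative fitted for them: Nfkb1 in microglia at D1, Nfkbia in macrophages at D10, Nfkbia and Tnfaip3 between macrophages and microglia on D1 to D3, Nfkbiz in neutrophil-like cells and Bcl3 on D10 and D21. Nfkbiz in neutrophil-like cells had no value with mixed libraries alone. Of 128 results not past it, 96 passed under none. Of 4082 alternative values, 5 were reversed, 135 lost a call and 76 gained one. Total-count scaling and leaving out shared barcodes were chosen after seeing the data.

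The reversed values with mixed libraries alone, where 1 control remained, were Nfkbiz 2.75 and Nfkbie 3.88 at D1 and Nfkbie 4.19 at D3. With the pool term they were Nfkbie 0.32 at D3 and Relb -0.79 for D10 against D3. In CPM, the mixed D1 and D3 libraries lay below Ctrl mixed 1 for Nfkbie, and so did those of D1 for Nfkbiz. In mixed libraries, sex and day were told apart only through D2 mixed 1 and 2. The D3 sums of microglia in the fit shared no pool with a control or D10 sum. The cause of these reversals was not tested.

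The number of called members in microglia, when each library was left out in turn, ran from 2 to 6 at D1 (5 with all), 0 to 6 at D2 (4), 1 to 3 at D3 (3), 0 to 1 at D10 (0), 0 to 3 for D3 against D1 (3) and 0 to 2 for D10 against D3 (1). It ran from 1 to 2 in macrophages at D10 (1), 0 to 4 for the interaction (3), 5 to 7 for macrophages against microglia on D1 to D3 (6) and 5 to 8 for neutrophil-like cells (8). With mixed libraries alone it was 1 at D1, 2 at D2, 0 at D3, 0 for D3 against D1, 0 for D10 against D3, 4 in macrophages at D3, 2 in macrophages at D10, 2 for macrophages against microglia, and 0 for neutrophil-like and for dendritic-like cells on D1 to D3. With total counts it was 7 at D2, 8 at D3, 3 at D10, 2 at D21 and 1 for D3 against D1. With the pool term it was 0 at D2, 0 at D3, 1 at D10 and 0 for D10 against D3. The sort term gave 1 for D3 against D1. DESeq2 gave 2 for D10 against D3 and 1 for late dendritic-like cells, where no filter gave 2. At least 50 cells gave 0 and leaving out cluster 2 gave 1 for the interaction, and leaving out cluster 2 gave 0 for D10 against D3.

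With the replicate block in mixed libraries, 1 member was called for D3 against D1 (Nfkbia) and 1 for D10 against D3 (Nfkbia, not Relb). Same-numbered libraries correlated between -0.198 and 0.122, so the numbers were not taken to pair them. A pool term could not be fitted for microglia at D1 and D21, D3 against D1, or macrophages at D10. Depth limits the genes of few counts, Nfkbie, Nfkbiz, Tnfaip3 and Bcl3, in the sums of 23 to 28 cells.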
